A study of Mus musculus with 6 samples.

Results

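The levels of 10 marker genes of resident macrophages, the macrophages that live in a tissue, were read in mouse aorta. The genes were chosen by symbol from a list of names, and all of them were found among the 55335 genes of the deposited tables. They were Mrc1, Lyve1, Cd163, F13a1 and Folr2, which mark the macrophages of the outer vessel wall, Cd68 and Adgre1, which mark macrophages in general, and C1qa, C1qb and C1qc, the chains of complement C1q. Aorta was taken from wild-type C57BL/6 mice aged 6 weeks (young, 3 mice) or 6 months (aged, 3 mice), the strain being spelled c57b6l in the labels. The methods of the study call the mice male and the groups young and aged, so a juvenile aorta was set against that of a mature adult, without an older group. Whole vessel, cleaned of surrounding fat according to those methods, was sequenced with 1 library per mouse, without sorting of cells and without a treatment or transgene in either group.

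Resident macrophages of arteries sit mainly in the adventitia, the connective tissue coat of the vessel, where many carry LYVE1, FOLR2 and CD163 on their surface. They take up debris and iron-laden hemoglobin complexes, keep close contact with smooth muscle cells and fibroblasts, and renew themselves in part by division in place. C1q is the recognition part of the first complement complex and is made in tissues largely by macrophages, where it also tags dying cells for removal.

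The total count per library lay between 31049632 and 45832185, and mitochondrial genes took 14.9% to 21.2% of the counts in young and 23.1% to 30.4% in aged aorta. The part of that difference in the results was not tested. Young replicate 1 stood apart, since Xist, the RNA that silences an X chromosome in female cells, was at 305.6 CPM there and at most at 0.636 CPM in the other 5 libraries, while the Y-linked gene Ddx3y was at 1.09 CPM against 44.8 to 65.6 CPM. Aged replicate 2 stood apart in the macrophage genes themselves, as given below. Results are therefore also given without either library. CPM is the count per 1e6 reads of the library after TMM normalization, and FPKM is the value that the authors scaled for gene length as well.

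The stretches upstream of 4 markers are shown first, because 3 of them hold the same short motif and the last lacks it. Windows of 250 bases before RefSeq transcript starts were found for 7 of the 10 markers (9 windows, GRCm38.p6). The letters AGGAAG, the core of the site bound by PU.1, the transcription factor that all macrophages need, were looked for on both strands. They are printed in capitals, as AGGAAG or as the reverse complement CTTCCT. Mrc1 is shown for its 3 matches (chr2:14229164-14229413, + strand), C1qb for a match close to the start (chr4:136886201-136886450, - strand), F13a1 for 2 matches (chr13:37050245-37050494, - strand) and Cd163 for having none (chr6:124304401-124304650, + strand).
Mrc1: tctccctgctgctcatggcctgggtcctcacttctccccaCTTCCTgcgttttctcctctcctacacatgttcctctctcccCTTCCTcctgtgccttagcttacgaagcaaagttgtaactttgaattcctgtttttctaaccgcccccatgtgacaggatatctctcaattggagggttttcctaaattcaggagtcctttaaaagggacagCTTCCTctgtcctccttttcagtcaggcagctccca
C1qb: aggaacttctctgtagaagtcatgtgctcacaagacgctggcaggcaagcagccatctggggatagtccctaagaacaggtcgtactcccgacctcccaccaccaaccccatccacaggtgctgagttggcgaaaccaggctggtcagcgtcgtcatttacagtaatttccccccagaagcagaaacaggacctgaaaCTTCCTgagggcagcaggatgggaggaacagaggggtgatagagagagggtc
F13a1: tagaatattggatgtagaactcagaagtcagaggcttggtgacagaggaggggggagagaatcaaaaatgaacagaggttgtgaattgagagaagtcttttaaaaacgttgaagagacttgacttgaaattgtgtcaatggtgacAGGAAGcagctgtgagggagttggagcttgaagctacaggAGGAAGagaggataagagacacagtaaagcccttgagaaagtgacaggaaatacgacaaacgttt
Cd163: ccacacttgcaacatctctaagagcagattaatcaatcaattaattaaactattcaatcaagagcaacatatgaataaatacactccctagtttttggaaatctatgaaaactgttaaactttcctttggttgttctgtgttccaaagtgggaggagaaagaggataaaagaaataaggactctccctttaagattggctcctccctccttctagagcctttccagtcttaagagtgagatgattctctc
In Mrc1 the matches ended 205, 163 and 31 bases before the start, in C1qb the match ended 47 bases before it, and in F13a1 they ended 100 and 60 bases before it. The letters occurred in 7 of the 9 windows, belonging to 5 of the 7 markers (Mrc1, C1qb, C1qc, Folr2 and F13a1), against 29.5% of all 32851 windows of this length. The AP-1 letters TGANTCA, read on both strands, occurred in 2 of the 9 windows (Folr2 and Cd68) against 6.75% of all windows. The Maf letters TGCTGA occurred in 3 of the 9 windows, belonging to 2 markers (C1qb and Folr2), against 16.1%, and the TATA box TATAAA in 0 against 12.4%. The letters searched were chosen after these sequences had been seen, and a match is a description, not a site.

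All 10 marker genes were measured in every library and had a higher mean in aged than in young aorta, by 2.003 to 3.26 times. Of all genes tested, 52.1% had a log2 fold change above 0. The test across all genes did not call any of them. With edgeR's quasi-likelihood test, 0 of the 10 had an adjusted p below 0.05, as did 0% of the 16612 genes tested. At an unadjusted p below 0.05, 9 of the 10 were higher in aged aorta, Folr2 being the exception, against 5.56% of all genes tested. The median log2 fold change of the 10 was 1.43 against 0.02 over all genes, and each of the 10 lay at or above 1.00, a size that 7.19% of all genes passed. With DESeq2, run as an alternative, 5 of the 10 (Mrc1, Lyve1, Cd163, C1qa and C1qb) had an adjusted p below 0.05 and were higher in aged aorta, against 1.32% of all genes. In 4 of the 10 (Mrc1, Cd163, Cd68 and Adgre1) every aged library was above every young one, against 7.74% of all genes. In bulk RNA, a change in the number of macrophages and a change in the RNA of each macrophage cannot be told apart.

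**Figure D1:**
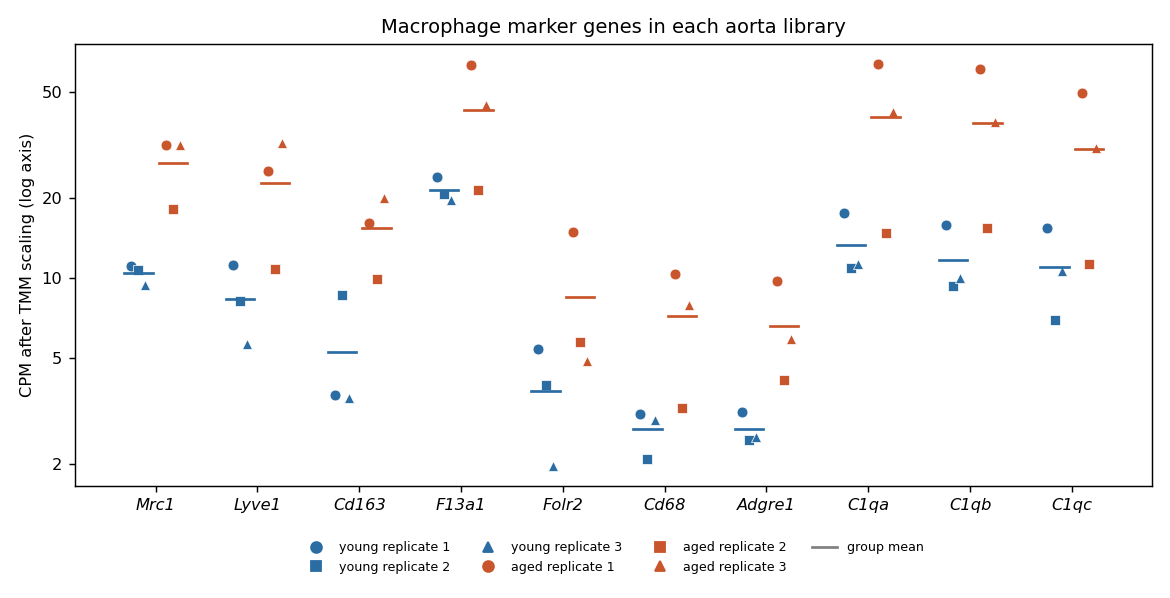
CPM after TMM normalization (log axis) of the 10 marker genes in each of the 6 aorta libraries, 3 young and 3 aged, with bars at the group means. Aged replicates 1 and 3 lie above every young library for 10 and 9 of the genes, and aged replicate 2 lies near the young libraries for most of them.

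The scavenger and lectin receptors came first. Mrc1, the mannose receptor CD206, which takes up glycoproteins, lies on chr2:14229392-14332057 (+ strand) of GRCm38 in GENCODE M21. Its CPM were 11.15, 10.75 and 9.41 in the young libraries and 31.7, 18.2 and 31.6 in the aged ones. All aged libraries were above all young ones, and the spread among the young libraries was narrow. The mean went from 10.4 ± 0.909 (SD, n = 3) to 27.15 ± 7.75 (SD, n = 3) CPM, a log2 fold change of 1.38 (SE 0.25). The edgeR adjusted p was 0.317 and the DESeq2 adjusted p was 5.3e-04, and 38 genes of all those tested had a smaller edgeR p.

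Lyve1 encodes a hyaluronan receptor shared by adventitial macrophages and lymphatic endothelium (chr7:110850607-110863239, - strand). It was at 11.2, 8.19 and 5.68 CPM in young and at 25.3, 10.8 and 32.3 CPM in aged aorta. Aged replicate 2 lay within the young values, so the groups overlapped. The log2 fold change was 1.45 (SE 0.43), with an adjusted p of 0.383 by edgeR and 0.0468 by DESeq2. Lymphatic endothelial genes were read because they share Lyve1. All 6 of that list had a higher mean in aged aorta, 2 of them at an unadjusted p below 0.05, and their median log2 fold change was 0.95, and their summed CPM lay between 9.03 and 18.8 in young and between 17.5 and 59.7 in aged aorta. Without aged replicate 3, 4 of the 6 had a higher mean and the median was 0.13. Pdpn, a lymphatic and stromal cell glycoprotein, was at 6.19, 6.32 and 3.82 CPM in young and 22.4, 6.41 and 26.1 CPM in aged aorta, while Prox1, the transcription factor that defines lymphatic endothelium, was at 1.13, 0.201 and 0.408 CPM in young and 0.662, 0.451 and 1.06 CPM in aged aorta, with overlap. In aged replicate 1, where Lyve1 was high, Prox1, Flt4 (3.37 CPM) and Ccl21a (2.798 CPM) lay within the young range. Pdpn, Mmrn1 (4.78 CPM) and Reln (1.44 CPM) lay above every young library there, and the list summed to 2.32 times the young mean. In aged replicate 3, where Lyve1 was highest, Flt4 (12.1 CPM), Ccl21a (9.17 CPM), Mmrn1 (9.13 CPM), Reln (2.12 CPM) and Pdpn lay above every young library. Prox1 did not, and the list summed to 3.90 times the young mean in that library. The part of lymphatic cells in the Lyve1 values was not tested.

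Cd163 encodes the receptor for hemoglobin bound to haptoglobin (chr6:124304656-124330527, + strand). Its CPM were 3.63, 8.65 and 3.56 in young and 16.2, 9.91 and 20.1 in aged aorta. The groups did not overlap, but young replicate 2 stood at more than the level of both other young libraries together. This was the only marker for which young replicate 1 was not the highest young library. The log2 fold change was 1.54 (SE 0.43), with an adjusted p of 0.377 by edgeR and 0.0342 by DESeq2.

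Folr2, the folate receptor of resident macrophages (chr7:101839988-101857194, - strand), had the lowest count among the markers, 68 in young replicate 3, which is 1.98 CPM with an exact Poisson 95% interval of 1.54 to 2.51 CPM that covers counting error only. Its CPM were 5.41, 3.97 and 1.98 in young and 14.9, 5.75 and 4.88 in aged aorta. Only aged replicate 1 stood clear of the young libraries, and aged replicate 3 was below young replicate 1. The log2 fold change was 1.17 (SE 0.54), with an adjusted p of 0.507 by edgeR and 0.320 by DESeq2. The antisense gene Gm10602 overlaps Folr2, and whether the counting used strand is not given in the sources used here. Gm10602 had 64, 44 and 90 counts in young and 33, 85 and 33 in aged libraries.

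F13a1 encodes the A chain of coagulation factor XIII, the enzyme that cross-links fibrin, which macrophages make as well as platelets (chr13:36867178-37050244, - strand). It was at 23.9, 20.7 and 19.6 CPM in young and at 62.95, 21.4 and 44.5 CPM in aged aorta. Aged replicate 2 was at the level of the young libraries, which themselves lay close together. The log2 fold change was 1.00 (SE 0.36), the smallest among the markers, with an adjusted p of 0.429 by edgeR and 0.159 by DESeq2. Of the 6 platelet genes listed, 1 had a higher mean in aged aorta and 5 a lower one, and their median log2 fold change was -0.58, 0 at an unadjusted p below 0.05, and a summed CPM of 14.99 to 47.9 in young and 6.20 to 42.2 in aged aorta.

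The general macrophage markers were Cd68 and Adgre1. Cd68, a glycoprotein of lysosomes in all macrophages (chr11:69664213-69666153, - strand), was at 3.10, 2.10 and 2.94 CPM in young and 10.35, 3.26 and 7.96 CPM in aged aorta. The groups did not overlap in CPM, by 0.164 CPM, but did in FPKM, where aged replicate 2 was at 2.21 and young replicate 1 at 2.33. The log2 fold change was 1.40 (SE 0.44), with an adjusted p of 0.390 by edgeR and 0.0801 by DESeq2. Adgre1, which encodes the mouse macrophage antigen F4/80 (chr17:57358691-57483527, + strand), was at 3.16, 2.47 and 2.54 CPM in young and 9.78, 4.14 and 5.91 CPM in aged aorta. Every aged library was above every young one. Its log2 fold change was 1.28 (SE 0.36), with an adjusted p of 0.379 by edgeR and 0.0582 by DESeq2.

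The C1q genes lie side by side on the - strand of chromosome 4, within 18675 bases (chr4:136880129-136898803). The gaps between C1qb and C1qc and between C1qc and C1qa are 3616 and 2851 bases, with 0 other annotated genes between them. Each gene gives a chain of the same C1q molecule. C1qa was at 17.6, 10.95 and 11.3 CPM in young and 63.7, 14.8 and 42.0 CPM in aged aorta. C1qb was at 15.9, 9.34 and 9.99 CPM in young and 61.1, 15.5 and 38.5 CPM in aged aorta. C1qc was at 15.4, 6.96 and 10.6 CPM in young and 49.5, 11.3 and 30.9 CPM in aged aorta. In each of them aged replicate 1 was the highest library, aged replicate 3 the next, and aged replicate 2 was below young replicate 1, so the groups overlapped. The log2 fold changes were 1.59 (SE 0.49) for C1qa, 1.70 (SE 0.48) for C1qb and 1.47 (SE 0.53) for C1qc. The adjusted p was 0.390, 0.377 and 0.429 by edgeR, and 0.0438, 0.0215 and 0.0993 by DESeq2.

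Levels between genes were compared as FPKM, which is per length. Averaged over all 6 libraries, the C1q chains were the most abundant markers, with C1qa at 22.4, C1qb at 20 and C1qc at 9.39 FPKM. Lyve1 (4.63 FPKM), F13a1 (4.22), Folr2 (3.49), Cd68 (3.43) and Mrc1 (2.58) followed, and Cd163 (1.64) and Adgre1 (1.27) were lowest. The neighbours in this order from Lyve1 to Mrc1 lay within the spread of their own libraries. The C1q chains took 67.1% ± 4.71 (SD, n = 3) of the summed FPKM of the markers for young and 70.2% ± 5.56 (SD, n = 3) for aged aorta, a difference of 3.10 percentage points that is smaller than the spread between libraries. The mean log2 CPM of the 5 markers of adventitial macrophages minus that of the C1q chains came to -0.56 ± 0.51 (SD, n = 3) for young and to -0.71 ± 0.47 (SD, n = 3) for aged aorta, also within the spread.

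The ratio of C1qa to C1qb in FPKM kept close to the same value in every library, at 1.16, 1.23 and 1.18 in young and 1.09, 1.00 and 1.14 in aged aorta. Over the 45 pairs of markers, the SD of the log2 ratio across the 6 libraries went from 0.102 for C1qa and C1qb to 0.940 for Cd163 and C1qc, with a median of 0.442, and the 3 pairs of C1q chains lay between 0.102 and 0.216. Cd163 to C1qa, in contrast, was 0.0390, 0.150 and 0.0596 in young and 0.0483, 0.127 and 0.0909 in aged aorta. The libraries with the highest ratio were young replicate 2 and aged replicate 2, the ones in which the C1q chains were low within their group. Pearson's r between the log2 values of pairs of markers lay between 0.521 and 0.995 over the 6 libraries (median 0.878), as a description over libraries that also share their group.

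**Figure D2:**
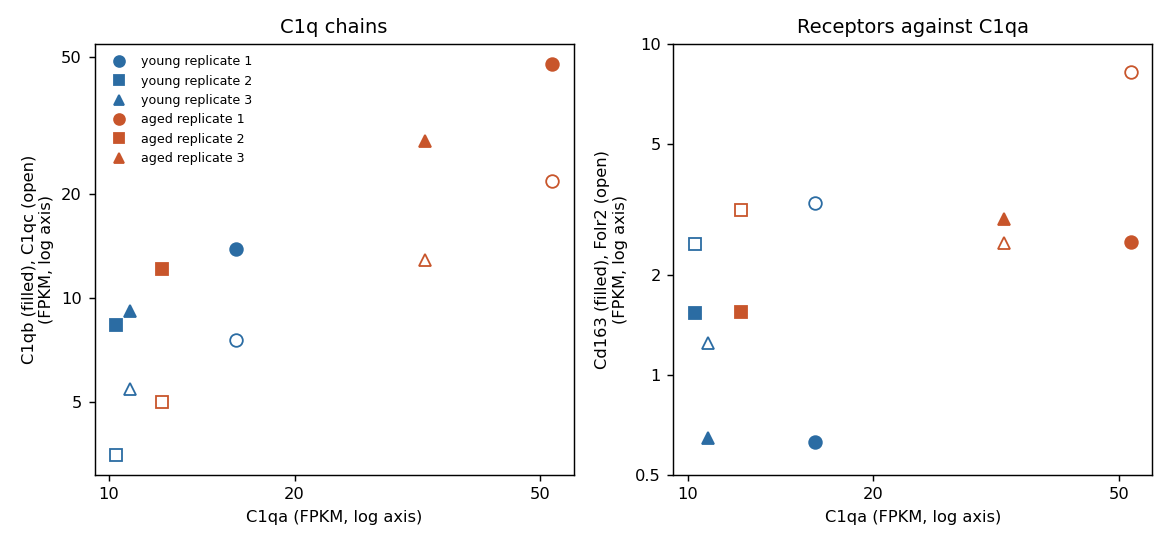
FPKM of C1qb (filled) and C1qc (open), left, and of Cd163 (filled) and Folr2 (open), right, against FPKM of C1qa in the 6 aorta libraries (log axes), 3 young and 3 aged. In the left panel the libraries lie along lines of nearly constant ratio, from about 10.3 FPKM of C1qa in young replicate 2 to 52.2 FPKM in aged replicate 1. In the right panel the ratio to C1qa goes from 0.0390 to 0.150 for Cd163 and from 0.0772 to 0.259 for Folr2.

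The aged libraries differed widely among themselves. Aged replicate 1 was the highest of all 6 libraries for 8 of the 10 markers and aged replicate 3 for the other two. Against the young mean, aged replicate 1 was at 2.94 to 5.20 times (median 3.71), aged replicate 3 at 1.29 to 3.87 times (median 2.98) and aged replicate 2 at 0.997 to 1.88 times (median 1.31). Aged replicate 2 was the lowest aged library for 9 of the 10 markers, Folr2 being the exception, and was still above the young mean for 9, F13a1 being the exception. Without aged replicate 2, all 10 markers were higher in aged aorta at an unadjusted p below 0.05, against 8.19% of all genes, and their median log2 fold change was 1.77. Mrc1 (log2 fold change 1.60, adjusted p 0.0344) and C1qa (1.99, adjusted p 0.0488) then passed the edgeR test in the direction of aged aorta, against 0.583% of all genes. Aged replicate 2 was singled out by its low marker values, so fits without it raise the marker fold changes by construction. The calls in such fits are therefore no separate support. Without young replicate 1, all 10 were higher at an unadjusted p below 0.05, against 5.9% of all genes, with a median of 1.52 and 0 calls. With both libraries left out, all 10 were again higher at an unadjusted p below 0.05, against 9.41% of all genes, with a median of 1.80 and 0 calls, the lowest adjusted p of all genes being 0.0542. Without aged replicate 1, 5 of the 10 were higher at an unadjusted p below 0.05, against 4.26% of all genes, with a median of 1.07. In that fit the log2 fold change of Folr2 was 0.49 and that of F13a1 was 0.62.

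**Figure D3:**
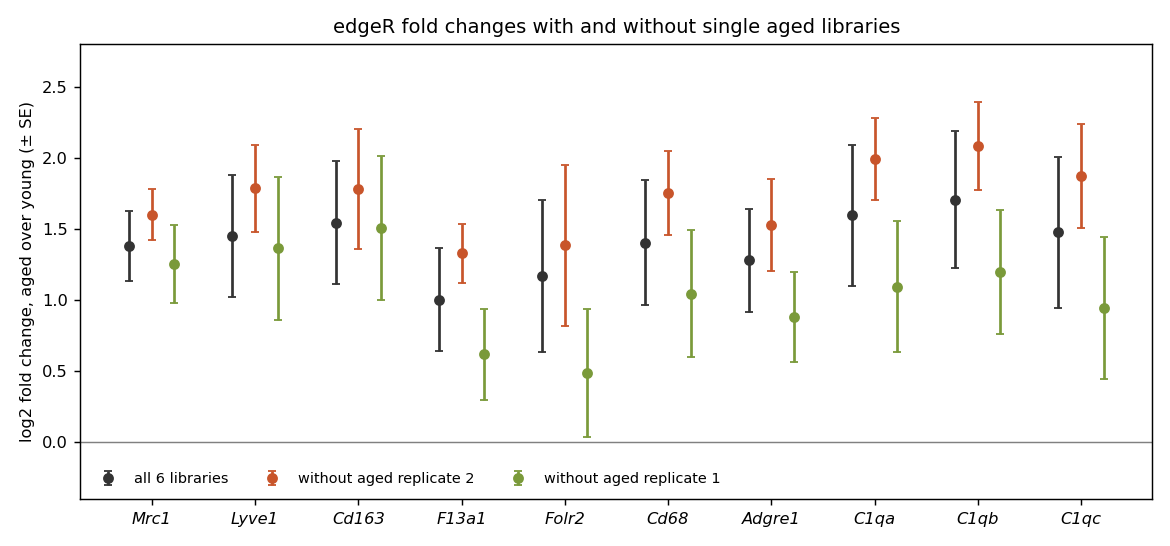
Log2 fold change of aged over young aorta for the 10 marker genes, with bars of 1 SE, from edgeR with all 6 libraries, without aged replicate 2 and without aged replicate 1. Each gene lies above 0 in all of these fits. Leaving out aged replicate 2 raises the median from 1.43 to 1.77, which follows from choosing a library with low marker values.

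Other genes of macrophages were read from lists written for this purpose. Over all 16612 genes tested with all libraries, 52.1% had a log2 fold change above 0. At an unadjusted p below 0.05 by edgeR, 5.56% were higher and 800 genes lower in aged aorta. The counts of each list, also those given above, stand beside these shares. Of 20 genes used by all myeloid cells, 20 had a higher mean in aged aorta (18 with raw library totals) and 11 of them at an unadjusted p below 0.05, and their median log2 fold change was 1.35, with 0 adjusted calls. With a library left out the number lay between 3 (without aged replicate 1, median 0.88) and 13 (without aged replicate 2), and it was 7 without young replicate 2. Lyz2, the lysozyme of macrophages and neutrophils, was at 64.75, 49.7 and 46.9 CPM in young and 216.1, 59.2 and 127.9 CPM in aged aorta, the same order of aged libraries as the C1q chains. Itgam, the integrin CD11b of myeloid cells, was at 1.05, 0.402 and 0.350 CPM in young and 5.05, 3.76 and 4.39 CPM in aged aorta. This is the Itgam row whose identifier (ENSMUSG00000030786) matched the symbol in the gene name table. All 3 aged libraries, aged replicate 2 included, lay clear of the young ones for Itgam, with a log2 fold change of 2.85 (SE 0.50) and an adjusted p of 0.306 by edgeR and 3.27e-05 by DESeq2. A second row with the symbol (ENSMUSG00000108596) was at 0.413, 0.690 and 0.991 CPM in young and 3.28, 0 and 3.57 CPM in aged aorta, with an edgeR log2 fold change of 1.71 (SE 1.30) and an adjusted p of 0.661, so its groups overlapped. Cd300a, an inhibitory receptor of myeloid cells, was at 0.103, 0.201 and 0.0583 CPM in young and 1.26, 0.769 and 0.920 CPM in aged aorta, with counts of 2 to 7 in the young libraries. Ptprc, the CD45 antigen of all leukocytes, was at 1.51, 4.28 and 0.874 CPM in young and 3.04, 1.41 and 2.44 CPM in aged aorta, the log2 fold change being 0.05 (SE 0.62). This defining leukocyte gene, added here after its values were seen, overlapped between the groups.

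Among 22 further genes of resident macrophages, 21 were tested, 19 had a higher mean in aged aorta (17 with raw library totals) and 6 of these had an unadjusted p below 0.05, and their median log2 fold change was 0.87. The number was 2 without aged replicate 1 or without young replicate 2, 3 without young replicate 3, 4 without aged replicate 3, 7 without aged replicate 2 and 10 without young replicate 1. Csf1r, the receptor for the growth factor that macrophages depend on, was at 12.3, 14.7 and 12.5 CPM in young and 36.95, 16.6 and 30.3 CPM in aged aorta, with every aged library above every young one. Its log2 fold change was 1.09 (SE 0.30), with an adjusted p of 0.377 by edgeR and 0.0470 by DESeq2. Mgl2, a C-type lectin of the same cells, was at 6.11, 3.25 and 3.79 CPM in young and 10.4, 7.24 and 9.41 CPM in aged aorta, also without overlap. Ccl8, a chemokine, had 21, 10 and 0 counts in the young libraries and 103, 40 and 27 counts in the aged ones. Cbr2, the most abundant gene of the list and a carbonyl reductase, had a mean of 328.0 ± 67.9 CPM (SD, n = 3) for young and 291.6 ± 50.2 CPM (SD, n = 3) for aged aorta. The log2 fold change was 0.02 (SE 0.37) for Mertk, 0.12 (SE 0.20) for Maf, 0.25 (SE 0.41) for Pf4 and -0.38 (SE 0.82) for Cx3cr1. With Cbr2 included, the list summed to 1.15, 0.999 and 1.12 times the young mean in aged replicates 1, 2 and 3. Cbr2 and Mertk (mean 99.2 CPM in young and 100.6 CPM in aged aorta) made up most of this sum, which was 501.6 to 585.9 CPM in young. The sum therefore mostly follows Cbr2 and Mertk and does not show the level of the other genes listed.

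Markers of other macrophage states and of incoming cells were read as well. Of 10 monocyte genes, 6 were tested, 3 had a higher mean in aged aorta and 1 of these had an unadjusted p below 0.05, with a median of -0.06 (between -0.14 and 0.22 with a library left out). The 10 summed to 2.39, 0.751 and 2.54 times the young mean in aged replicates 1, 2 and 3. Plac8 alone was at 10.3, 1.09 and 9.20 CPM in these libraries, of sums of 14.65, 4.61 and 15.6 CPM. The high sums in aged replicates 1 and 3 were thus mostly this gene. Ly6c2 (log2 fold change 1.38, SE 0.58, edgeR adjusted p 0.474) and Plac8 (1.68, SE 0.85) were higher in aged aorta. Itgal (-0.33, SE 0.66) was among the 3 tested genes with a lower mean. Gpnmb, a glycoprotein of lipid-laden macrophages, was at 15.2, 6.84 and 9.15 CPM in young and 34.6, 62.4 and 24.9 CPM in aged aorta, and the log2 fold change was 1.97 (SE 0.42), with an adjusted p of 0.360 by edgeR and 0.00108 by DESeq2. Its highest library was aged replicate 2, where the resident markers were low among the aged. The 7 genes of the lipid-associated list had 4 tested, all 4 with a higher mean in aged aorta and 2 at an unadjusted p below 0.05 (5 of 5 tested without aged replicate 2 and 1 of 4 tested without aged replicate 1). Their summed CPM was 2.67, 2.96 and 2.19 times the young mean in aged replicates 1, 2 and 3, and Gpnmb made up 76.4% of the sum in aged replicate 2. Without Gpnmb the sums were 2.28, 1.12 and 2.06 times the young mean, so that the rest of the list lay near the young level in aged replicate 2. Spp1, Lgals3 and Trem2 were each lowest among the aged libraries there, at 1.01, 17.9 and 0.133 CPM. Of 10 genes of dendritic cells and MHC class II, 7 were tested, 6 had a higher mean in aged aorta and 3 at an unadjusted p below 0.05, with a median of 0.80 (0.48 without young replicate 3). H2-Aa, an MHC class II chain, was at 14.7, 15.2 and 10.3 CPM in young and 17.7, 29.05 and 23.2 CPM in aged aorta, with aged replicate 2 highest here too.

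**Figure D4:**
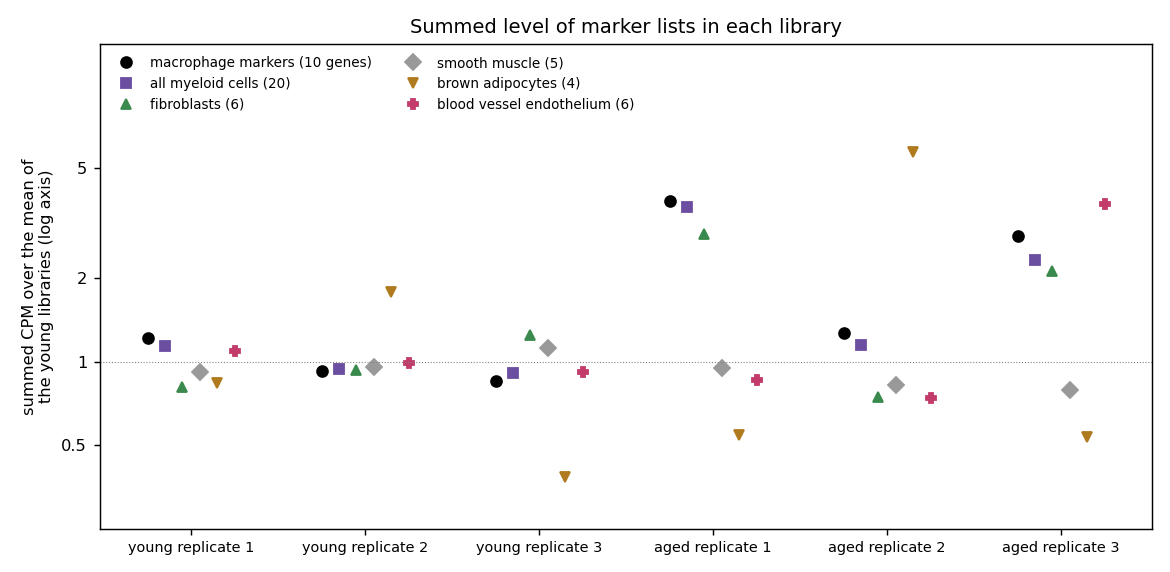
Summed CPM of the 10 macrophage markers and of 5 marker lists in each of the 6 aorta libraries, divided by the mean of the 3 young libraries (log axis, 1 = young mean). The macrophage markers are at 3.81, 1.27 and 2.85 in aged replicates 1, 2 and 3, fibroblast genes at 2.88, 0.747 and 2.12, and brown adipocyte genes reach 5.73 in aged replicate 2.

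The fibroblast genes took the same order over the aged libraries as the macrophage genes. The 6 listed all had a higher mean in aged aorta (5 with raw library totals), 4 of them at an unadjusted p below 0.05, with 0 adjusted calls. When aged replicate 2 was left out, 4 of the 6 had an adjusted p below 0.05 by edgeR, against 0.583% of all genes called higher. With all libraries 2 did by DESeq2, against 1.32% of all genes called higher. Without young replicate 1, young replicate 2, aged replicate 1 or aged replicate 3, 2 had an unadjusted p below 0.05. Their median log2 fold change was 1.39, and their summed CPM lay between 1858 and 2856 in young and between 1704 and 6578 in aged aorta. Dpt, dermatopontin of the fibroblast matrix, was at 142.7, 126.4 and 131.9 CPM in young and 604.9, 153.6 and 498.2 CPM in aged aorta, the order of aged libraries seen for C1qa. Col1a1, the chain of collagen type I, had means of 1192 ± 334 CPM for young and 1345 ± 605 CPM for aged aorta (SD, n = 3). The 5 smooth muscle genes all had a lower mean in aged aorta, 2 at an unadjusted p below 0.05, with a median of -0.20 and a summed CPM of 30980 to 38020 in young and 26700 to 32190 in aged aorta. The 6 genes of blood vessel endothelium had a median of 0.83, but -0.18 with 1 of 6 higher without aged replicate 3, and their summed CPM was 395.6 to 470.6 in young and 317.9 to 1601 in aged aorta, the highest value being that of aged replicate 3 and both other aged libraries lying below every young one. Brown adipocyte genes summed to 124.2 to 576.5 CPM in young and 173.4 to 1856 CPM in aged aorta, with the highest value in aged replicate 2. Their median was 1.06 with all libraries and -1.41 without aged replicate 2. The part of these cells in the macrophage values was not tested.

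Lymphocyte genes were near the limit of detection, and red cell genes were spread over the groups. The summed neutrophil and mast cell genes, also low, did not overlap between the groups. Lymphocyte genes summed to 1.75 to 8.25 CPM in young and 2.02 to 4.53 CPM in aged aorta, with 4 of 11 tested, 2 of them with a higher mean in aged aorta, and the NK cell genes Nkg7 and Ncr1 at 0 counts in every library. Of 8 neutrophil and mast cell genes, 6 were tested, all 6 with a higher mean in aged aorta and 0 with an unadjusted p below 0.05 by edgeR (3 without young replicate 1), against 5 in both limma fits on log2 FPKM. The listed genes summed to 1.24 to 5.76 CPM in young and 7.43 to 14.97 CPM in aged aorta. Their median log2 fold change was 1.79 (between 1.42 and 2.595 with a library left out). S100a9 had 6, 8 and 30 counts in young and 37, 40 and 50 counts in aged libraries. Mcpt4 was at 2.37, 0.747 and 0.466 CPM in young and 2.05, 3.05 and 5.45 CPM in aged aorta, with overlap. The neutrophil marker Ly6g was at 0 counts in every library. Red cell genes summed to 430.4 to 672.4 CPM in young and 391.5 to 877.4 CPM in aged aorta, and their median log2 fold change was 0.13 (-0.12 with raw library totals, -0.19 without aged replicate 3 and -0.04 without young replicate 1). Adipocyte genes had a median of -0.13 (between -0.997 without aged replicate 2 and 0.33 without young replicate 2), with 3 of 7 having a higher mean in aged aorta.

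The partners of the markers were read next. Of 9 genes for the partners and inhibitor of C1q in the first complement complex and for proteins that bind it, 7 were tested, 7 had a higher mean in aged aorta (6 with raw library totals) and 3 had an unadjusted p below 0.05, and their median log2 fold change was 0.90 (0.48 without aged replicate 3). Without aged replicate 2, 2 had an adjusted p below 0.05 by edgeR, against 0.583% of all genes called higher. C1s1, a protease of the complex that fibroblasts make, was at 52.55, 70.7 and 70.25 CPM in young and 199.1, 93.8 and 168.6 CPM in aged aorta, without overlap, and its log2 fold change was 1.25 (SE 0.29), with an adjusted p of 0.372 by edgeR and 0.00785 by DESeq2. Serping1, the inhibitor of the complex, was at 236.3, 297.9 and 360.7 CPM in young and 967.3, 237.7 and 708.9 CPM in aged aorta. Here aged replicate 2 was among the young libraries, as it was for the C1q chains.

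Hmox1, heme oxygenase, which breaks down the heme that CD163 brings in, was at 6.03, 5.78 and 6.50 CPM in young and 15.7, 18.95 and 23.5 CPM in aged aorta. All aged libraries were at more than 2 times every young one, aged replicate 2 included. Its log2 fold change was 1.67 (SE 0.21), with an adjusted p of 0.189 by edgeR, the lowest value, which 9 genes shared, and 8.01e-08 by DESeq2. Ftl1, the light chain of ferritin, which stores the iron released from heme, was at 217.7, 209.7 and 157.4 CPM in young and 495.1, 281.3 and 526.3 CPM in aged aorta, with an adjusted p of 0.372 by edgeR and 0.00933 by DESeq2. The whole list of ligands and pathway partners had 16 of 17 genes tested, 4 higher and 2 lower at an unadjusted p below 0.05, and a median of 0.02, that of all genes. Relatives of the marker receptors had 10 of 13 tested, 8 with a higher mean in aged aorta, 0 at an unadjusted p below 0.05 and a median of 0.39.

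Of 10 growth and polarizing factors of macrophages, 7 were tested, 6 had a higher mean in aged aorta and 1 of these had an unadjusted p below 0.05, with a median of 0.50 (0.27 without aged replicate 1, and 3 such genes without aged replicate 2). The gene was Csf1, the ligand of the Csf1r receptor, at 42.6, 48.4 and 67.2 CPM in young and 79.4, 112.1 and 104.0 CPM in aged aorta, without overlap. Its log2 fold change was 0.90 (SE 0.23), with an adjusted p of 0.377 by edgeR and 0.0373 by DESeq2. Of the 6 proliferation genes, 6 had a higher mean in aged aorta and 4 an unadjusted p below 0.05, with a median of 1.93. Mki67, which marks dividing cells of any type, was at 1.30, 2.70 and 2.21 CPM in young and 9.72, 4.90 and 8.71 CPM in aged aorta, and the log2 fold change was 1.91 (SE 0.39), with an adjusted p of 0.360 by edgeR and 0.00154 by DESeq2. Which cells carried it cannot be told from whole vessel.

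Genes with a pattern most like that of the markers were found from Pearson's r between their log2 CPM and the mean standardised log2 CPM of the 10 markers over the 6 libraries. The 5 closest of 16602 genes were Uap1l1 (r 0.998), Mpp6 (0.996), Ercc6l (0.996), Pgap2 (0.995) and Tmsb10 (0.994), and 181 genes had an r above 0.95. With 6 libraries in 2 groups many genes reach such values, and the closest genes of the lists were Lyz2 at rank 28 (r 0.984), Tyrobp at rank 44, Cd33 at rank 58, the fibroblast gene Dpt at rank 60, Fcer1g at rank 64, Aif1 at rank 70 and Ctss at rank 80. All of these except Dpt belong to the list of genes of all myeloid cells. Genes of other lists followed, such as Ftl1 at rank 91, Pdpn at rank 156 and Pdgfra at rank 181. Several genes of the myeloid list were far down the order. Irf8 was at rank 3243 (r 0.600), Mpeg1 at 3364 (0.586), Ptprc at 4797 (0.422) and Cybb at 5043 (0.395).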

How the data were processed

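Aorta RNA of 3 young (6 weeks) and 3 aged (6 months) mice was extracted with an RNeasy kit and made into libraries with a SMARTER mRNA kit. Replicates are separate mice per the study's design. The authors deposited whole-number read counts per gene and a table of FPKM, scaled for gene length and library reads. The submitters' processing notes name build mm10. The aligner, counting tool and annotation are not given in the sources used here. Of 55335 gene identifiers, 55154 were found in GENCODE M21, and 0 columns of values went unmapped. Counting error weighs most on genes of a few CPM.

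Counts were filtered with edgeR 4.0.16 in R 4.3.3 (filterByExpr by group, minimum count 10, minimum total 15), scaled by TMM and fitted with two-sided quasi-likelihood tests without covariates. P values were adjusted by Benjamini-Hochberg over the 16612 genes that passed, and 0.05 was the threshold. An exact permutation test cannot give less than 0.1 here and was not used. The fit was tested on simulated data. DESeq2 1.42.0, limma 3.58.1 on log2 FPKM (pseudocount 1 or 0.1), other scalings and filters, robust fitting, a replicate block and leaving out libraries were the alternatives.

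The 10 markers and 20 lists, written by hand from general knowledge, were chosen with earlier results of these data known, so no list was tested as a set. Named genes are the markers, from each list up to 3 genes with the smallest p and the most abundant one, where they make a point, and the 5 genes most like the markers. Ptprc, Prox1, Ccl21a, Reln, Trem2, Gm10602, Nkg7, Ncr1, Ly6g, Tyrobp, Cd33, Fcer1g and Ctss were added after their values were seen. The same holds for Mertk, Maf, Pf4, Cx3cr1, Irf8, Mpeg1 and Cybb. Gene coordinates are those of GENCODE M21 on GRCm38. Upstream sequences are from RefSeq on GRCm38.p6.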

Additional observations from a re-analysis of the deposited data

How the results depend on the processing

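Over 16 alternatives, all 160 log2 fold changes of the 10 markers stayed above 0, between 0.49 and 2.37. The count of markers higher at an unadjusted p below 0.05 was 9 with all libraries, 8 with raw library totals, 6 in both limma fits, and 5 to 10 when a library was left out, the lowest without aged replicate 1. The share of all genes at the same cut was 5.56% with all libraries and 2.60% with raw totals. It was 2.52% and 2.66% with limma at pseudocounts 1 and 0.1, and 3.67% to 8.19% with a library left out. Their median log2 fold change was 1.43, and 0.80 with limma on log2(FPKM + 1). The number of markers called at an adjusted p below 0.05 went from 0 to 5 with DESeq2, and was 0 to 2 with a library left out, the 2 arising without aged replicate 2. Over all genes, 0 were called by edgeR (1723 at an unadjusted p below 0.05) and 0 by limma, 334 by DESeq2, and 0 to 110 with a library left out, the last without aged replicate 2. For all these shifts the cause was not tested. Of the 1723 genes at an unadjusted p below 0.05, 53.6% were higher in aged aorta, against 14.7% of 2933 with raw totals and 15.7% and 16.6% with limma on FPKM, where all genes had a median of -0.22, -0.12 and -0.19 in place of 0.02. With raw totals the median of the monocyte genes was -0.30 and that of the ligands and pathway partners -0.21. With a replicate block, 0 genes were called, 10 markers were higher at an unadjusted p below 0.05, against 5.56% of all genes, and their median was 1.33. Same-numbered libraries deviated together with correlations of 0.0719, 0.108 and 0.0824, so the numbers were not taken to pair the samples. No marker's direction depended on the scaling. The lowest marker count, 68, was for Folr2.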

Other observations

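In aged replicate 2, the library in which the resident markers were closest to the young level, some other genes were not close to it. Against the mean of the young libraries, the 10 markers summed to 1.27 times and the 20 genes of all myeloid cells to 1.15 times there, while the neutrophil and mast cell genes to 2.87 times, the proliferation genes to 2.37 times and the dendritic cell and MHC class II genes to 1.71 times. Fibroblast genes summed to 0.747 times and genes of blood vessel endothelium to 0.738 times, and brown and other adipocyte genes summed to 5.73 and 1.58 times. The part of fat tissue in these values was not tested. Gpnmb (62.4 CPM), H2-Aa (29.05 CPM) and Csf1 (112.1 CPM) were at their highest of all 6 libraries in this mouse. These values come from 1 library and were not tested.

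Has1, which makes hyaluronan, the ligand of the LYVE1 receptor, had 5, 7 and 8 counts in the young libraries and 25, 23 and 23 counts in the aged ones, with an edgeR adjusted p of 0.382. Hyal1, which degrades hyaluronan, had a mean of 111.7 ± 12.5 CPM (SD, n = 3) for young and 83.1 ± 7.28 CPM (SD, n = 3) for aged aorta. Trem2, a lipid receptor of macrophages, was at 2.08 and 2.23 CPM in aged replicates 1 and 3 and at 0.133 CPM in aged replicate 2, where it had 5 counts, against 0.599 to 1.06 CPM in young aorta. Hyal1 was named after its values were seen.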
